A study of Cyprinus carpio with 2 samples.

Results

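The transcripts described here encode the proteins of the cytosolic ribosome in immature gonads from juvenile fish of the common carp, Cyprinus carpio. They were found by name, as the unigenes whose first gene name starts with rpl or rps and a digit, with rplp and a digit, or with rpsa, leaving out the S6 kinases (rps6k). A unigene is a numbered transcript unit that carries a protein and a gene name. The rule found 64 of the 22634 unigenes, under 40 gene symbols, and all 64 are in the expression table. None was found only in the authors' list for testis, and none is in that list or in the list for ovary. These lists are short, with 171 unigenes for testis and 127 for ovary beside the 22634, so this absence is no result about the members. RNA sequencing was done on 1 library of immature testis and 1 library of immature ovary, both from juveniles at 110 to 130 days post hatch. No treatment or strain is given in the labels, and they do not say how many fish each library holds. With 1 library per tissue, differences between the gonads lack replicates, so none has a p-value here. All 95% intervals of folds are exact binomial ones and cover counting error only.

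Cytosolic ribosomes consist of a large (60S) and a small (40S) subunit, each built from ribosomal RNA and a set of proteins that are needed in equal numbers. The mRNAs of these proteins start with a run of pyrimidines, the terminal oligopyrimidine (TOP) tract, through which mTOR signalling sets their translation together in mammals. Growing oocytes of fish and frogs stockpile ribosomes for the embryo, and dividing cells of any tissue make them to grow. In a bulk sample, fewer cells of a type and less RNA per cell cannot be told apart.

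Values are in deposited units, which are reads divided by 1 size factor per library, and 1 read was taken as 2.31 units in ovary and 1.73 units in testis. The tables held 4311799 ovary and 1926860 testis reads, sums over annotated unigenes and not the depth of the libraries. The value columns do not name a tissue. Column A was taken as ovary because all 127 unigenes of the list titled for ovary are higher in it, and column B as testis because all 171 of the testis list are higher there, so an error in those titles would exchange every direction below. Over all unigenes the median log2 ratio was -0.83, so the typical unigene stood 1.78-fold above its testis value in ovary, and ratios called relative below are set against that median. Log2 ratios are of testis over ovary after adding 1 unit to each. Folds of single unigenes and their intervals leave that unit out, so at low reads they can rank unigenes otherwise. Counts of unigenes past 2-fold or 4-fold are from the log2 ratios. The oocyte marker list had rows for 9 of its 10 symbols, and all 31 of their unigenes lay on the ovary side of the median, with 5.75% of ovary and 0.757% of testis reads. The testis somatic markers had rows for 4 of 6 symbols, amh, sox9a, wt1a and cldn11a, with 30 ovary and 2106 testis reads. Markers of other cells that a gonad sample can hold were read in both libraries, with 956 ovary and 43 testis reads for skeletal muscle (5 of 6 symbols), 2940 and 391 for leukocytes (4 of 5), 614 and 141 for erythrocytes (2 of 5) and 3904 and 1587 for germ cells (2 of 4). By unigene the picture was mixed. Relative to the median, 2 of 8 skeletal muscle, 5 of 8 leukocyte, 3 of 4 erythrocyte and 2 of 4 germ cell unigenes lay toward testis. The part of these markers in the results below was not tested.

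The ribosomal protein unigenes had nearly the same deposited level in both libraries. Their median log2 ratio was -0.08 as deposited, with 30 unigenes higher in testis and 34 higher in ovary. Over all unigenes 30.7% were higher in testis as deposited. Since most unigenes were higher in ovary as deposited, the same median was 0.75 relative to all unigenes, toward testis, so the sign depends on the scaling. Relative to that median, 56 members lay toward testis and 8 toward ovary, beside 50% of all unigenes above it by construction. With both libraries set to equal total reads 62 lay toward testis and 2 toward ovary. That scaling moves most unigenes toward testis, and the median of all unigenes that reached 5 units was then 0.73. The interval of the ratio excluded the median of all on the testis side for 54 members (background 27.5%) and on the ovary side for 5 (background 30.1%). Such intervals narrow with reads, and members had far more reads than most unigenes, so these counts and shares are not at like depth. None of the 64 was at least 4-fold from the median of all in either direction, whereas 25% of all unigenes that reached 5 units in either library were, 13.8% toward testis and 11.2% toward ovary. At least 2-fold, 24 members lay toward testis and 2 toward ovary, against 27.3% and 27.2% of all unigenes.

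The members also varied little among themselves. The lower and upper quartiles of the relative log2 ratio were 0.53 and 1.12, a width of 0.59, beside -1.06 and 1.11 over all unigenes, a width of 2.17. Members had far more reads than most unigenes, with medians of 802 in ovary and 1071 in testis against 35 and 29, so their counting error was smaller. Among unigenes with high values the spread was also wider than in the members. The 4426 unigenes that reached 500 units in either library had a median of -0.99, toward ovary, and a width between quartiles of 2.05, and the 56 members among them had a median of 0.84 and a width of 0.595. Of the 4426, 30.6% were at least 4-fold from the median of all, 25.4% toward ovary and 5.17% toward testis, and of the 56 members none was. That filter also takes in unigenes high in only 1 of the libraries, which by itself can widen their ratios. Median reads of the 4426 were 357 in ovary and 162 in testis, against 893 and 1293 for the 56 members. The 2 groups were thus not at like depth, and the part of counting error in the narrow spread was not tested.

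**Figure D1:**
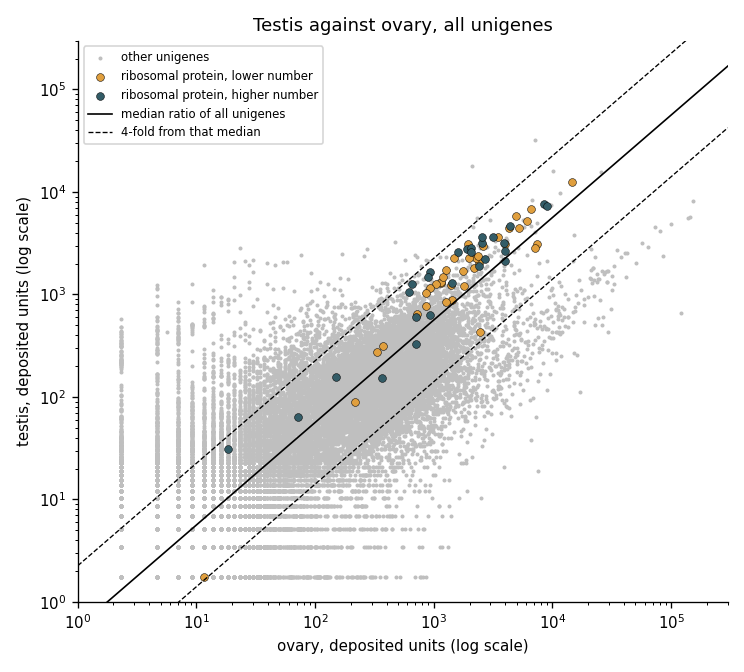
Deposited units of every unigene in testis against ovary, both axes logarithmic; filled circles are the 64 ribosomal protein unigenes, coloured by unigene number, and lines mark the median ratio of all unigenes and 4-fold from it. All 64 circles lie between the 4-fold lines, 56 of them above the median line.

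Unigene number divides this table. As deposited, the median log2 ratio was -1.69 over the 11904 unigenes with numbers up to 23679, called lower-numbered here, and 0.31 over the 10730 with numbers of 23712 or more, called higher-numbered. What the numbers stand for is not given in the sources used here. Ribosomal protein unigenes are in both ranges, 37 with lower numbers, up to 17126, and 27 with higher numbers, starting at 34882. Their medians as deposited were -0.14 and 0.070, closer to each other than those of all unigenes.

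The lower-numbered members lay toward testis within their range. There, 16 of 37 were higher in testis as deposited (43.2%), compared with 4.02% of all unigenes of the range, and 35 of 37 lay above the median of the range. The members' median relative to that of the range was 1.55. The higher-numbered members lay slightly toward ovary within their range. In that range 14 of 27 were higher in testis as deposited (51.9%), compared with 60.3% of all, and 10 of 27 lay above the median of the range, with a median of -0.24 relative to it. Above the median of all unigenes lay 32 of the 37 lower-numbered members (background 19.9%) and 24 of the 27 higher-numbered ones (background 83.4%). At least 4-fold from it, the 0 members of each range stand beside 0.2% of lower-numbered unigenes toward testis and 19.4% toward ovary, and 29.1% and 1.89% of higher-numbered ones. At least 2-fold relative to the median of all, 12 of 37 lower-numbered members lay toward testis (background 2.1%) and 12 of 27 higher-numbered ones (background 55.7%). Toward ovary the counts were 2 of 37 (background 46.8%) and 0 of 27 (background 5.09%). The position of these transcripts against other unigenes changes sign with the number range, while their deposited levels in testis and ovary are close to each other in both.

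**Figure D2:**
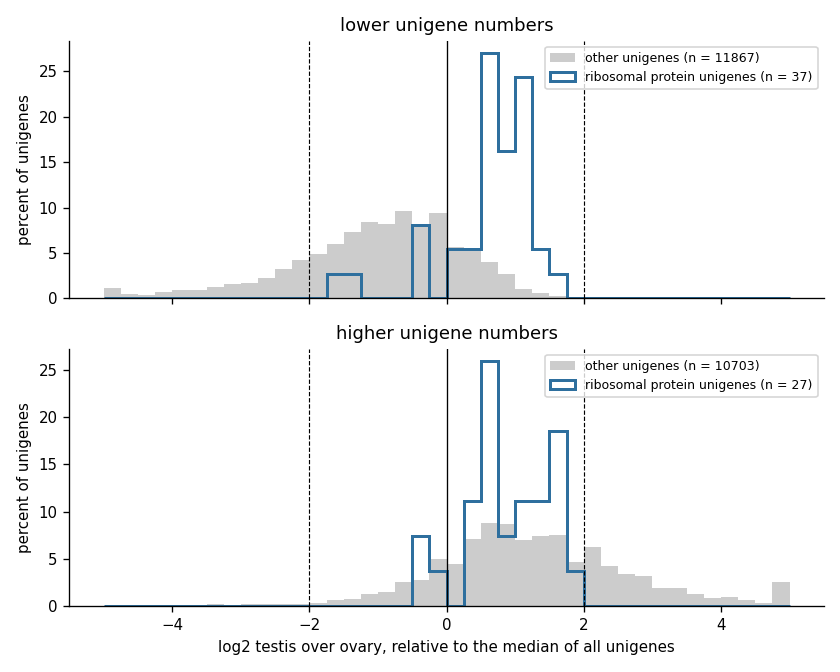
Percent of unigenes by log2 ratio of testis over ovary relative to the median of all unigenes, in bins of 0.25, with other unigenes in grey and ribosomal protein unigenes outlined, by unigene number; values beyond 5 are drawn in the end bins, and dashed lines mark 4-fold. The 37 lower-numbered and 27 higher-numbered members overlap each other, with medians of 0.69 and 0.90, while the grey distributions lie apart.

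Large subunit proteins had 35 unigenes under 21 symbols, with a median relative log2 ratio of 0.91. Of these 30 lay toward testis and 5 toward ovary. As deposited 20 were higher in testis (57.1%, against 30.7% of all unigenes) and 15 in ovary. The unigene with most reads was rpl3 (Unigene_17126), a protein near the peptidyl transferase centre, at 6293 ovary and 7257 testis reads. In units this was 14533 and 12569, so rpl3 was 1.16-fold higher in ovary as deposited and 1.54-fold (95% interval 1.49 to 1.59) toward testis relative to the median. Transcripts of rpl10a, the protein of the L1 stalk, held 2640 ovary and 3007 testis reads, a relative 1.52-fold (95% interval 1.44 to 1.6). Both genes thus show the typical pattern of the set, near-equal deposited units and a moderate position toward testis relative to all unigenes. In rpl13 there were 1499 ovary and 2110 testis reads, and in rpl13a, which in human cells can leave the ribosome to repress translation, 1882 and 2666. Their relative log2 ratios were 0.90 and 0.91.

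The large subunit unigenes farthest toward testis relative to the median of all belonged to rpl30, rpl27, rpl9, rpl37 and rpl38. All 3 unigenes of rpl30, whose yeast protein binds its own transcript, lay toward testis. Unigene_50620 held 285 ovary and 736 testis reads, a relative 3.44-fold (95% interval 3.0 to 3.96), the largest of the 64 toward testis. Unigene_11419 held 544 and 1011 reads and Unigene_11420 held 452 and 726. For rpl30 the direction did not turn as deposited, where the summed unigenes had a log2 ratio of 0.53. The unigenes of rpl27 held 406 ovary and 959 testis reads (Unigene_60255) and 518 and 855 reads (Unigene_12379), a relative 3.15-fold and 2.20-fold. Unigene_13842 of rpl9 held 836 ovary and 1805 testis reads, a relative 2.88-fold (95% interval 2.65 to 3.13), and its neighbour in number, Unigene_13841, held 849 and 1306. These 2 unigenes have like ovary reads and differ in testis reads. In rpl37, Unigene_11456 held 639 ovary and 1307 testis reads, a relative 2.73-fold. The short rpl38 count, 8 ovary and 18 testis reads in Unigene_54302, gave a relative 3.0-fold with a 95% interval of 1.24 to 7.97. Most reads of rpl38, which in mouse affects translation of Hox transcripts, were in Unigene_12548 at 369 and 448. Relative to the number range the order differed. The higher-numbered Unigene_50620, Unigene_60255 and Unigene_54302 had log2 ratios of 0.64, 0.51 and 0.41. The lower-numbered Unigene_13842, Unigene_11456 and Unigene_11419 had 2.38, 2.30 and 2.17, the farthest of all members toward testis.

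Only rpl12, rpl22 and its paralogue rpl22l1 placed large subunit unigenes toward ovary. Both rpl12 unigenes did so, for a protein at the base of the stalk where translation factors bind. Unigene_6370 held 3208 ovary and 1793 testis reads, a relative 1.34-fold toward ovary (95% interval 1.27 to 1.42), and Unigene_52099 held 1717 and 1232, a relative 1.05-fold (95% interval 0.971 to 1.13). As deposited they were 2.39-fold and 1.86-fold higher in ovary, while relative to their number ranges their log2 ratios were 0.43 and -1.21. With equal total reads both turned toward testis, at 0.32 and 0.68, as did the rpl22 and rpl22l1 unigenes named next. The direction of these unigenes thus depends on the scaling.

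Both rpl22l1 unigenes had low reads and lay toward ovary, by a relative 1.38-fold (95% interval 0.973 to 1.98) with 94 ovary and 51 testis reads in Unigene_12480 and by 1.34-fold (95% interval 1.02 to 1.76) with 157 and 88 in Unigene_70079. The unigenes of rpl22, which in mouse represses Rpl22l1, did not lie together. Unigene_70080 held 307 ovary and 188 testis reads, a relative 1.22-fold toward ovary, and Unigene_11684 held 976 and 1298, a relative 1.77-fold toward testis. Unigene_70080 has the number next to Unigene_70079 of rpl22l1, and the deposited protein names of all 4 unigenes begin with "Uncharacterized protein". Whether reads were divided among related unigenes was not tested. The single rpl7l1 unigene, named for a relative of L7 and counted here with the large subunit, held 307 ovary and 346 testis reads, a relative 1.5-fold toward testis (95% interval 1.28 to 1.76).

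**Figure D3:**
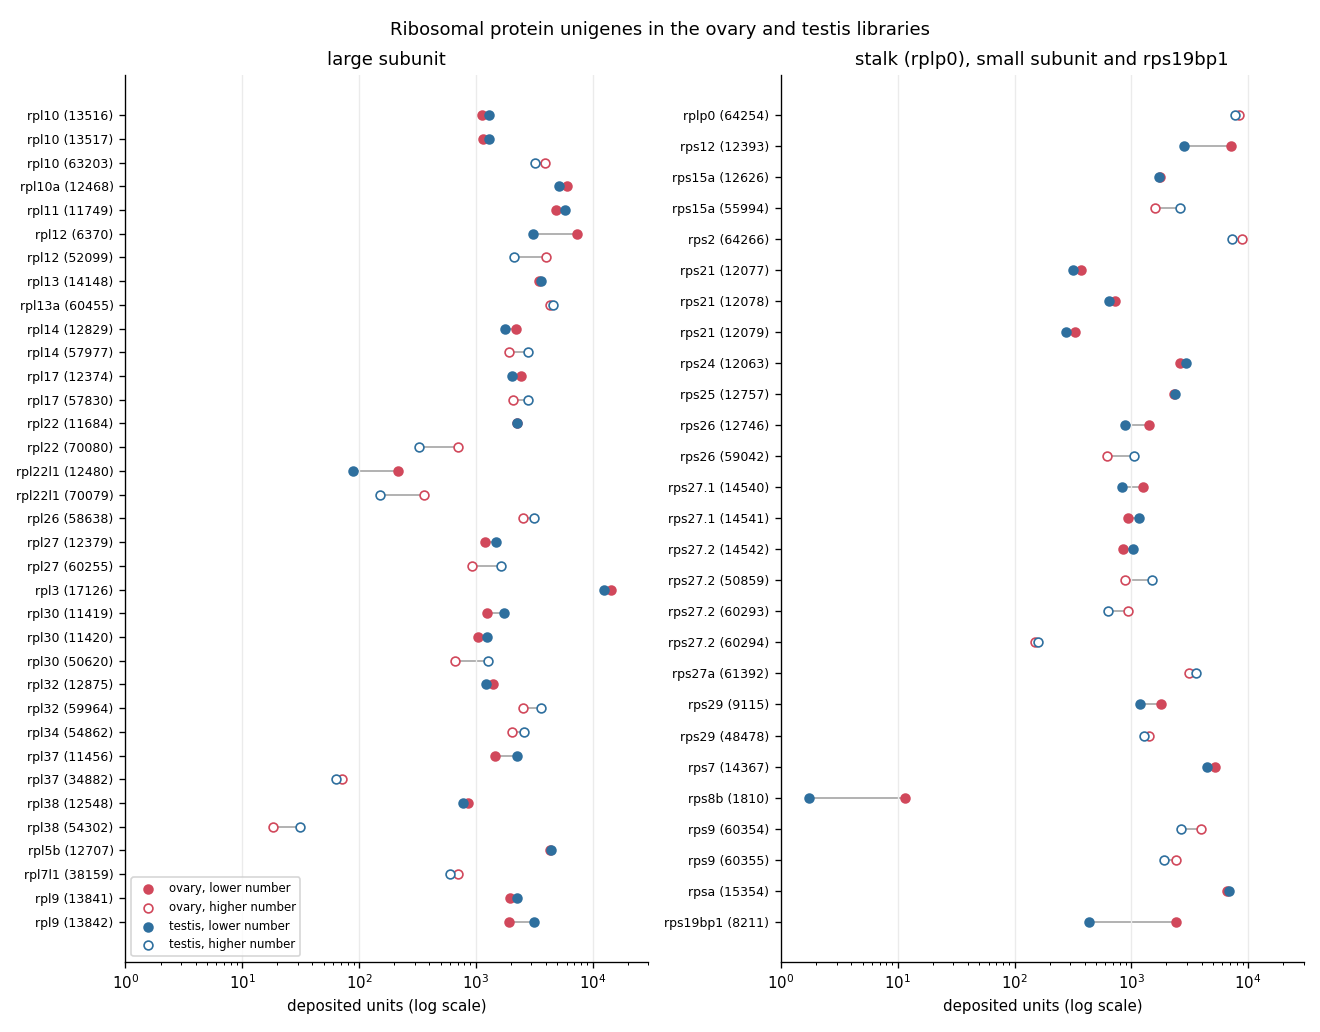
Deposited units, on a log axis, of 62 of the 64 ribosomal protein unigenes in the ovary (red) and testis (blue) library, with the unigene number in brackets; filled circles are lower numbers and open circles higher numbers, and there is 1 library per point. Circles of most unigenes nearly touch, and the widest gaps are in rps8b and rps19bp1.

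The stalk, which recruits elongation factors, was represented by its anchor protein rplp0 alone. Unigene_64254 held 3641 ovary and 4439 testis reads, or 8409 and 7689 units. It was 1.09-fold higher in ovary as deposited (95% interval 1.05 to 1.14) and 1.63-fold (95% interval 1.56 to 1.70) toward testis relative to the median. No row matched rplp1 or rplp2, so these were not analysed here.

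Small subunit proteins had 27 unigenes under 17 symbols, with a median relative log2 ratio of 0.60. As deposited the median was -0.23, with 10 unigenes higher in testis (37.0%, against 30.7% of all unigenes) and 17 in ovary. Relative to all unigenes 25 lay toward testis and 2 toward ovary. The large subunit median was higher by 0.32 on the log2 scale, by 0.30 among lower-numbered and by 0.45 among higher-numbered unigenes. The ranges of the subunits overlapped, from -1.37 to 1.59 for the small and from -0.46 to 1.78 for the large subunit, and the difference has no test. The most reads in all were in rps2 (Unigene_64266), near the mRNA entry, with 3876 ovary and 4169 testis reads and a relative 1.43-fold toward testis. Next in total reads came rpsa (Unigene_15354), also known as the laminin receptor, with 2834 and 3954 reads and a relative 1.86-fold (95% interval 1.77 to 1.95). For rps7 there were 2275 and 2548 reads. As deposited these unigenes were at most 1.24-fold from equality.

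A single abundant small subunit transcript lay toward ovary. In rps12 (Unigene_12393), a protein of the beak of the subunit, 3081 ovary and 1646 testis reads were found, a relative 1.40-fold toward ovary (95% interval 1.32 to 1.49) and 2.50-fold as deposited. Relative to its number range the log2 ratio of rps12 was 0.37 and with equal total reads 0.26, both toward testis, so its direction too depends on the scaling. The other small subunit member toward ovary, rps8b, had 5 ovary reads and 1 testis read, a relative 3.75-fold toward ovary, and its 95% interval, from 0.420 to 177-fold, leaves the direction undetermined at this depth. The unigene of rps9 with more reads (Unigene_60354, 1710 ovary and 1530 testis reads) lay a relative 1.19-fold toward testis, and as deposited 1.49-fold toward ovary.

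Several small subunit proteins with 1 unigene had relative log2 ratios between the median of the 64, 0.75, and their upper quartile, 1.12. In rps24, which is mutated in Diamond-Blackfan anaemia in humans, 1124 ovary and 1699 testis reads gave a relative 2.02-fold toward testis. In rps25, needed by some viral mRNAs in mammalian cells, 1011 and 1374 reads gave 1.81-fold, and in rps27a, made as a fusion with ubiquitin, 1359 and 2085 gave 2.05-fold. The large subunit singles rpl26 (1105 and 1828 reads) and rpl34 (887 and 1495) lay just above that quartile, at 2.21-fold and 2.25-fold toward testis.

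In rps26 and in both rps27 genes, unigenes of 1 symbol lay apart. Transcripts of rps26, which touches the mRNA near the exit channel, held 616 ovary and 508 testis reads in Unigene_12746 and 269 and 609 in Unigene_59042. The relative folds toward testis were 1.1 (95% interval 0.976 to 1.24) and 3.02 (95% interval 2.61 to 3.5), and as deposited the unigenes lay on opposite sides of equality. Summed, rps26 held 885 ovary and 1117 testis reads, a relative log2 ratio of 0.75, close to the median of the set. The zinc finger protein gene rps27.1 held 550 and 484 reads in Unigene_14540 and 404 and 668 in Unigene_14541, relative folds toward testis of 1.17 and 2.20. Its companion rps27.2 ranged over 4 unigenes from a relative 1.2-fold in Unigene_60293 (402 ovary and 363 testis reads) to 2.98-fold in Unigene_50859 (386 and 864).

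The name rule also took in rps19bp1, which is no subunit protein. The human protein of that name binds ribosomal protein S19 and the deacetylase SIRT1. Its unigene (Unigene_8211) held 1052 ovary and 249 testis reads, a relative 3.17-fold toward ovary (95% interval 2.76 to 3.65) and 5.63-fold as deposited. It had the lowest relative log2 ratio of the 64, -1.66, and is in neither subunit median above. That ratio adds 1 unit to each library. Without the added unit rps8b, at 5 ovary reads and 1 testis read, lay farther toward ovary, at a relative 3.75-fold. In the authors' deposited table rps19bp1 also had the smallest p-value of the 64, 0.347, and their median p-value there was 0.912.

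Of the 40 symbols, 21 had 1 unigene, 15 had 2, 3 had 3 and 1 had 4. The carp genome is duplicated, so unigenes of 1 symbol can be gene copies or pieces of a transcript, which the files do not tell apart, and reads of near-identical copies may have been divided between them. Consecutive unigene numbers were found for 10 pairs of members, as in rpl30, rps21 and rps9. Not all of these pairs share a symbol. Unigene_70079 of rpl22l1 stands next to Unigene_70080 of rpl22, and Unigene_14541 of rps27.1 next to Unigene_14542 of rps27.2. The 3 consecutive rps21 unigenes lay within 0.09 of each other on the log2 scale, at 161 ovary and 183 testis, 313 and 369, and 143 and 158 reads. By contrast, consecutive rps27.1 unigenes lay 0.91 apart.

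In all, 15 symbols had unigenes in both number ranges, which allows a comparison within a symbol. In 11 of these the higher-numbered unigenes had the higher ratio of testis over ovary, and the median difference was 0.52 on the log2 scale. Over the 4475 other symbols with unigenes in both ranges the median difference was 1.67, and in 95.9% the higher-numbered unigenes had the higher ratio. The difference in ribosomal protein symbols ran from -1.12 in rpl22 to 1.46 in rps26. In rpl14 the lower-numbered unigene held 951 ovary and 1036 testis reads and the higher-numbered one 832 and 1622, a difference of 0.84. In rps15a the reads were 757 and 988 against 688 and 1506, a difference of 0.75. In rpl32 they were 608 and 713 against 1106 and 2105, and in rpl17, at the exit of the peptide tunnel, 1050 and 1182 against 899 and 1623. In each of these symbols the ratio of testis over ovary was higher in the higher-numbered unigene. As deposited, their lower-numbered unigenes were higher in ovary and their higher-numbered ones higher in testis. The difference was negative in rpl10, rpl37 and rps27.2 besides rpl22, and in rpl37 and rps27.2 the intervals of the ratios overlapped. Among the 11 symbols with a positive difference the intervals were apart in 9 and overlapped in rpl22l1 and rpl38. For rpl10, whose yeast protein joins the large subunit late, Unigene_13516 and Unigene_13517 together held 991 ovary and 1503 testis reads and Unigene_63203 held 1689 and 1848.

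**Figure D4:**
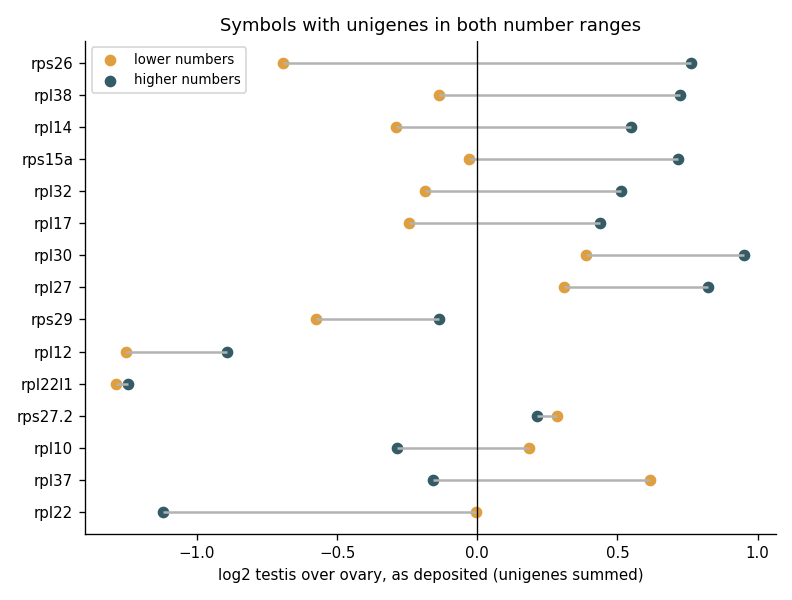
Log2 ratio of testis over ovary as deposited for the 15 ribosomal protein symbols with lower-numbered (orange) and higher-numbered (dark) unigenes, unigenes of a range summed. The dark point lies to the right for 11 symbols and to the left for rps27.2, rpl10, rpl37 and rpl22.

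Members held a larger share of testis reads than of ovary reads in these tables. They took 4.51% of testis reads (exact 95% interval 4.48 to 4.54) and 1.64% of ovary reads (1.62 to 1.65), a ratio of 2.75. The large subunit held 2.60% and 0.884%, and the small subunit 1.66% and 0.643%. A share rests on everything else in the library. The 31 oocyte marker unigenes alone took 5.75% of ovary reads, and without the 10 other unigenes with most reads in each library, 17 in all, the members held 4.72% and 1.84%. The shares were 2.66% and 1.01% for the 37 lower-numbered members and 1.85% and 0.622% for the 27 higher-numbered ones. All lower-numbered unigenes together held 42.6% of testis and 67.7% of ovary reads, and all higher-numbered ones 57.4% and 32.3%.

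Genes that work with the 5S ribosomal RNA lay on both sides of the median. The ribosomal proteins L5 and L11 bind it on its way into the large subunit and, in mammals, hold Mdm2 when assembly fails. Transcripts of rpl5b (Unigene_12707) held 1856 ovary and 2556 testis reads, a relative 1.84-fold toward testis (95% interval 1.73 to 1.95). Transcripts of rpl11 (Unigene_11749) held 2122 and 3366, a relative 2.12-fold (95% interval 2.0 to 2.23). For gtf3ab, named for transcription factor IIIA, which switches on 5S genes and in frog oocytes stores their RNA, the reads were 3441 in ovary and 391 in testis, a relative 6.6-fold toward ovary (95% interval 5.94 to 7.35). Transcripts of rrs1, which in yeast loads the particle together with rpf2, lay a relative 2.22-fold toward ovary (491 ovary and 166 testis reads), and rpf2 itself lay 1.39-fold toward testis (279 and 290). Relative to the median of all, rpl5b, rpl11 and rpf2 thus lay toward testis, and gtf3ab and rrs1 toward ovary. For rpf2 the log2 ratio was -0.36 as deposited and -0.67 relative to its number range, so its direction depends on the scaling. The others kept their side under both.

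Other genes of ribosome production lay farther toward ovary than the ribosomal proteins. The ribosome biogenesis list, of nucleolar factors, had 114 unigenes with a median relative log2 ratio of -0.28, and of the 111 that reached 5 units 6 were at least 4-fold toward testis (13.8% over all unigenes) and 3 toward ovary (11.2% over all), both below these shares. By number range its medians were -0.67 for lower and 0.28 for higher numbers, compared with 0.69 and 0.90 for the ribosomal proteins. All 4 unigenes of nucleolin, ncl, lay toward ovary, from 1.65-fold (1296 ovary and 590 testis reads) to 3.52-fold (1721 and 367). The H/ACA particle gene nhp2, lower-numbered, lay 7.49-fold toward ovary. The higher-numbered nat10 and emg1, which modify ribosomal RNA, had low reads toward testis (1 ovary and 12 testis, and 11 and 68). RNA polymerase I and III genes, 39 unigenes, had a median of -0.79, with 2 at least 4-fold toward testis (13.8% over all) and 7 toward ovary (11.2% over all). Of those 7, 6 were among the 26 lower-numbered unigenes of the list, a range in which 19.4% of all unigenes were as far toward ovary. The list includes gtf3ab, described above. Among the others polr3k, a subunit of polymerase III, lay 10.4-fold toward ovary (429 ovary and 31 testis reads). The 2 unigenes of gtf3c6, of the factor that binds tRNA genes, held 147 ovary and 11 testis and 143 and 15 reads. The polr3k and gtf3c6 unigenes are lower-numbered. No test of the difference between lists was possible with 1 library per tissue.

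Other transcripts that carry a TOP tract in mammals varied more. Their 49 unigenes had a median relative log2 ratio of 0.57, quartiles of -0.34 and 1.11, and 5 at least 4-fold toward testis (13.8% over all) and 2 toward ovary (11.2% over all). All 5 were among its 26 higher-numbered unigenes, a range in which 29.1% of all unigenes were as far toward testis. The most abundant unigene of elongation factor eef2b (Unigene_19445) held 4372 ovary and 9224 testis reads, a relative 2.81-fold toward testis. The abundant tpt1, translationally controlled tumour protein, held 3113 and 2368, a relative 1.01-fold. Unigenes of few ovary reads lay farthest toward testis, eef1a1b with 4 ovary and 286 testis reads, eef2b Unigene_69568 with 20 and 170, and pabpc1b, a poly(A) binding protein, with 49 and 396. The eef1a1b unigene comes from the authors' testis list alone, so that choice fixed its direction. The gene faub, whose product holds the small subunit protein S30, has a name outside the rule. Its 4 unigenes ranged from a relative 2.57-fold toward ovary (89 ovary and 26 testis reads) to 2.73-fold toward testis (45 and 92).

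The mTOR and S6 kinase list, 22 unigenes, had a median of -0.66 for lower and 1.37 for higher numbers. Of the 20 that reached 5 units 3 were at least 4-fold toward testis (13.8% over all) and 0 toward ovary (11.2% over all), and the 3 were higher-numbered, where 29.1% of all unigenes were as far toward testis. Its rptor, the adaptor of mTOR complex 1, had 5 ovary and 168 testis reads in Unigene_72821 but 52 and 19 in Unigene_8134. The S6 kinase rps6kb1b held 436 ovary and 294 testis reads, a relative 1.11-fold toward ovary (95% interval 0.957 to 1.29). Proteins of the mitochondrial ribosome, which is built apart from the cytosolic one, had 122 unigenes with a median of -0.59, 13 of them at least 4-fold toward ovary, close to the 11.2% over all unigenes, and 3 toward testis, beside 13.8% over all. Within number ranges the mitochondrial medians were -1.02 and -0.10, each below that of the cytosolic proteins. The mitochondrial unigenes farthest out were mrps6 toward ovary (278 ovary and 22 testis reads) and mrps21 and mrps14 toward testis (8 and 89, and 9 and 76). Of these, mrps6 is lower-numbered, a range in which 19.4% of all unigenes were at least 4-fold toward ovary. The unigenes of mrps21 and mrps14 are higher-numbered, where 29.1% were as far toward testis.

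**Figure D5:**
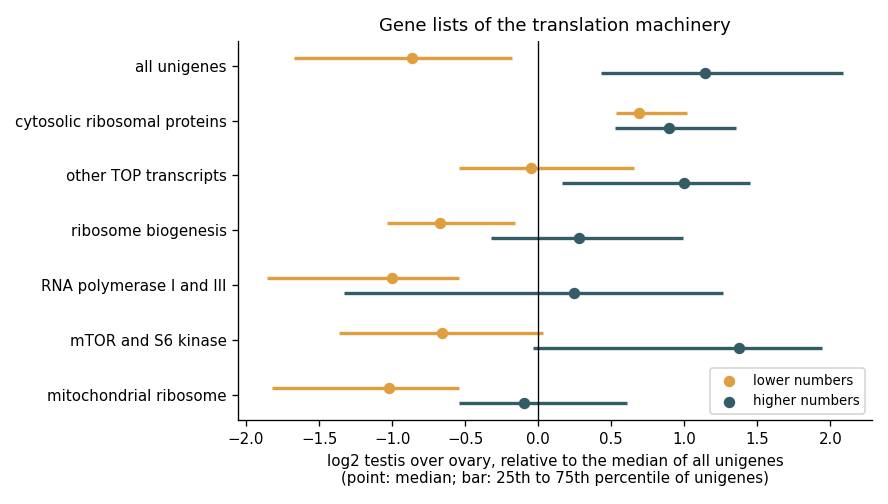
Median (point) and range between the quartiles (bar) of the log2 ratio of testis over ovary relative to the median of all unigenes, for lists of the translation machinery, by unigene number. The cytosolic ribosomal proteins have medians of 0.69 and 0.90 in the 2 ranges, whereas all unigenes have -0.86 and 1.14.

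The set covers part of the ribosome. Of 79 subunit proteins by their standard names, 36 had a member unigene, 20 of 47 in the large subunit with its stalk and 16 of 32 in the small subunit. No member row matched, for example, rpl4, rpl8, rps3, rps6 or rps19, and these were not analysed here. Medians given above therefore describe the rows with these names and not the whole ribosome. The files give no transcript lengths, so levels were not compared between genes.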

How the data were processed

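RNA from immature gonads was made into libraries with an RNA sequencing kit, per the labels' protocols. How reads were aligned or counted, and against which build, was not given in the sources used here. Values deposited by the authors are a signal, reads per unigene divided by 1 size factor per library. Their smallest steps were 2.31 (ovary) and 1.73 (testis), and dividing by these gave whole reads within 0.01 read for 22632 ovary and 22633 testis values of 22634, and for all 64 members. Whether a step is 1 read was not tested. The deposited log2 fold change is column B over column A, and no header says how the authors made the p-value they deposited.

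The 147 unigenes found only in the authors' testis list were added to the 22487 of the table. Members, gene lists and named genes were chosen with earlier results of these data known. Named members were those with most reads, the highest and lowest ratios in each number range, and proteins with set roles, and further members, with rptor, tpt1, ncl and rps6kb1b, were added after their values were seen. Symbols were matched exactly or with a paralogue suffix. The log2 ratio used a pseudocount of 1, and 4-fold and 2-fold counts a floor of 5 units. Folds of single unigenes used no pseudocount. Intervals are Clopper-Pearson. A count test on the reads was not run, since 1 library per tissue leaves no replicates, so it calls no genes. The intervals and ratios were tested on simulated data. Of the 40 symbols, 18 matched a symbol or synonym of the RefSeq annotation of assembly ASM1834038v1, used for names only. Python 3.11.15, numpy 2.4.6, pandas 2.3.3 and scipy 1.17.1 were used. The alternatives changed the pseudocount, the floor, the scaling, the fold, the rows included, and the summing of unigenes. The values of 2 of the 64 members are not reported singly here, though counts and medians include them.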

Additional observations from a re-analysis of the deposited data

How the results depend on the processing

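No paired analysis was possible because each tissue has 1 library, and no library could be left out. The count of 0 members at least 4-fold from the median held with pseudocounts of 0.1 and 10, the trimmed mean of log ratios and summed unigenes. The trimmed mean, at -0.86, was near the median of all, -0.83, so it had little room to change the count. A summed ratio lies between those of its unigenes, so summing could raise the count only through a shift of the median of all. A floor of 0 units could not raise the count, because all 64 members already passed the floor of 5 units. A floor of 20 units, which left 63 members, and an 8-fold threshold are stricter, so they could not raise it either. Leaving out rows from the testis list alone removed no member, and leaving out rows whose protein name is not that of a ribosomal protein left 50. Removing rows could raise the count only through a shift of the median of all, and in both cases the count stayed at 0. It became 2 toward ovary as deposited (23.2% of all unigenes), 3 toward testis against the median of the number range (5.45% of all), 12 toward testis with equal total reads (23.2% of all), and 24 toward testis and 2 toward ovary at 2-fold (27.3% and 27.2% of all). The median of members was -0.08 as deposited, so it turned, 1.5 with equal total reads and 0.48 with a pseudocount of 10. The large subunit median was 0.087 as deposited, 1.66 with equal total reads, 1.40 against the number range and 1.15 with summed unigenes. The small subunit median was -0.23 as deposited, so it also turned, 1.35 with equal total reads, 0.995 against the number range and 0.33 with a pseudocount of 10. Shifts under another scaling follow from its construction, and for the pseudocount and the summed unigenes the cause was not tested. Alternatives chosen after seeing the data were leaving out rps19bp1 (median 0.80), members with at least 100 reads (0.80) and a floor of 500 units (0.84). The large minus small subunit difference was 0.45 among higher-numbered unigenes and between 0.30 and 0.40 in the other 7 alternatives. Of these, the value as deposited equals the main one, 0.32, by construction. The share of testis reads was 4.62% without rows from the testis list alone, 4.72% without the other most-read unigenes and 3.86% without unnamed proteins, and that of ovary reads 1.84% and 1.39% in the latter cases. Depth limits rps8b, rpl38 Unigene_54302 and rpl37 Unigene_34882, the 3 members with under 100 reads in all.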
